A study of Mus musculus with 48 samples.

Results

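The genes described here encode chaperones of the endoplasmic reticulum and proteins of the unfolded protein response: Hspa5, Hsp90b1, Pdia4, Pdia6, Dnajb9, Dnajc3, Herpud1, Xbp1, Sdf2l1 and Creld2. They were taken by gene symbol, 10 of the 18193 genes that carried a symbol on the array, and every probe set annotated to them was read, 23 in all. Signals passed the filter on low values for 22 of the 23 probe sets and for all 10 genes; the one left out was a dim second probe set of Pdia4. Each gene is given by its brightest probe set, and the other probe sets are given where they differed.

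The cells were 32D-BCR/ABL cells, a mouse myeloid progenitor line made to express the BCR/ABL tyrosine kinase of chronic myelogenous leukaemia. Derivatives carried a MigRI retroviral vector with no insert, or the vector encoding C/EBPα, a transcription factor that drives granulocytic differentiation, fused to ER, a receptor domain that responds to 4-HT (4-hydroxytamoxifen). The fusions were wild type (WT), K298E, described by the labels as unable to bind DNA, and Δ(177-191), described as deficient in interaction with CDK2 and CDK4. Total RNA was measured at 0, 6, 9 and 12 h of 4-HT on 3 arrays for each of the 16 combinations of construct and time, 48 arrays in all. All 4 lines carried BCR/ABL and all received 4-HT, so the vector line at the same hour is the comparison for time and drug. The labels name 1 line per construct, so a difference between constructs cannot be told apart from a difference between lines, and no culture was kept without 4-HT at the later hours. The design text calls the 3 arrays a triplicate and the treatment protocol calls them experiments, and nothing ties a replicate number to a culture, so p-values measure the spread between these arrays, some of which may be technical.

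Proteins that enter the endoplasmic reticulum are folded there by chaperones and disulphide isomerases, and misfolded ones are passed back to the cytosol for degradation. When unfolded protein accumulates, the sensors IRE1α (Ern1), ATF6 and PERK (Eif2ak3) start the unfolded protein response: IRE1α splices Xbp1 mRNA, ATF6 is cut and moves to the nucleus, and PERK slows translation and favours translation of ATF4. Splicing of Xbp1 and cutting of ATF6 are not read by these arrays, which measure the amount of mRNA.

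On the arrays as a whole, the median signal lay between 11 and 19, the trimmed mean between 100 and 100.02, and correlations between arrays of 1 group between 0.949 and 0.977. The estrogen receptor probe sets marked the lines that carried a fusion: Esr1 at 0 h read 18.3 ± 1.15 (SD, n = 3) in the vector line, 2475 ± 214 in WT, 1439 ± 145 in K298E and 3263 ± 446 in Δ(177-191). Of 5 markers of myeloid progenitors, Myb, Spi1 and Csf2rb were well above the filter in every line, Kit stayed near it (group means of 5.0 to 15.7), and Cd34 was below it throughout. The lines differed in markers of other myeloid types, and these values belong beside every result on Δ(177-191) below. The summed signal of 4 macrophage markers (Adgre1, Csf1r, Cd68 and Marco, the last with group means of at most 6.33) ran from 2606 to 3535 in Δ(177-191), against 730 to 1154 in the vector line. That sum stood at 2861 to 2958 in Δ(177-191) before 4-HT. Summed over 8 granulocyte markers, Δ(177-191) went from 1678 to 1810 at 0 h to 880 to 1257 after 4-HT, while WT went from 787 to 876 to 1912 to 3233. The sum also rose in K298E, from 805 to 867 at 0 h to 1227 to 2461 after 4-HT. In vector it fell, from 374 to 510 to 266 to 326. Prtn3 had the highest group means of the 8, 162 to 2600, so the sum is weighted towards that gene. Those of Mpo, Ctsg, Ltf, S100a8 and S100a9 reached at most 385, 143, 246, 499 and 598. Elane reached at most 20, and Camp, below the filter, 13. Summed over 4 mast cell and basophil markers the signal lay between 29 and 72 in Δ(177-191), against 201 to 713 in the other lines. Only Cpa3 of these markers passed the filter (group means of 23.7 to 682). Mcpt8, Mcpt4 and Ms4a2 did not, with group means of at most 6.33, 14.3 and 14.7, so this difference is mostly that of Cpa3. The part of such differences in the results was not tested, and more mRNA per cell and more cells that hold it cannot be told apart in bulk RNA.

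An element of the unfolded protein response was found in the promoters of 6 of the 10 members. The endoplasmic reticulum stress response element (ERSE) is CCAAT, which NF-Y binds, then 9 bases of any kind, then CCACG, which ATF6 and XBP1 bind. ERSE-II, described in the human counterpart of Herpud1, has the first of these turned to the opposite strand and set 1 base before the second. In RefSeq promoters of build GRCm38.p6, which cover 250 bases before and 50 after each start and were found for 10 of 10 members, an exact ERSE on either strand occurred in 5 of 10: Hspa5, Hsp90b1, Pdia6, Dnajc3 and Creld2. Of the 32851 promoters given, an ERSE was in 39, or 0.119%. ERSE-II occurred in Herpud1, and in 12 promoters in all (0.0365%). The letters TGACGTGG (UPRE) were in 0 of 10 members and 0.676% of promoters, and TTGCGCAA, a C/EBP site, in 0 of 10 and 0.183%. CCAAT alone was in 37.4% and CCACG alone in 32.8% of promoters, and both lie within the elements named here. A match of letters is a description and says nothing of binding. The 250 bases before the start are printed 5′ to 3′ on the gene's strand for 5 members that rose in Δ(177-191) (Hspa5, Hsp90b1, Dnajc3, Herpud1 and Sdf2l1) and for Creld2, which holds an ERSE and had no call in its mean changes. Capitals mark the outer 5 bases at each end of an exact ERSE or ERSE-II; Hsp90b1 holds 2 ERSEs, the second of them and that of Creld2 lying on the opposite strand, and Sdf2l1 holds none.
Hspa5 (chr2:34771840-34772089, + strand): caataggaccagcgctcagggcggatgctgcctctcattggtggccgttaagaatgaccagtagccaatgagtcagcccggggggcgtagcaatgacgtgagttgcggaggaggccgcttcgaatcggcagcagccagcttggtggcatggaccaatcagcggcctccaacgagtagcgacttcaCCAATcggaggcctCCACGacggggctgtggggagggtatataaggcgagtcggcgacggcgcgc
Hsp90b1 (chr10:86705445-86705694, − strand): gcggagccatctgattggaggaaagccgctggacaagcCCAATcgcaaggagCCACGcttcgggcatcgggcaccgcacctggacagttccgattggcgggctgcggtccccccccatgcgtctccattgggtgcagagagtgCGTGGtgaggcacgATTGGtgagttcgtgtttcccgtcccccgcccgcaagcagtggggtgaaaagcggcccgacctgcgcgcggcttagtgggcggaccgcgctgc
Dnajc3 (chr14:118937682-118937931, + strand): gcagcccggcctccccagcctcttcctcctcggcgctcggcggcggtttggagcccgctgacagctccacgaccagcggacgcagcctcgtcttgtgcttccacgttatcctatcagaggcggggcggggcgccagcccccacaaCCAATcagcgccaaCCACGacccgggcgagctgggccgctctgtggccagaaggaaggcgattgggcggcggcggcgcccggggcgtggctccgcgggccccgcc
Herpud1 (chr8:94386179-94386428, + strand): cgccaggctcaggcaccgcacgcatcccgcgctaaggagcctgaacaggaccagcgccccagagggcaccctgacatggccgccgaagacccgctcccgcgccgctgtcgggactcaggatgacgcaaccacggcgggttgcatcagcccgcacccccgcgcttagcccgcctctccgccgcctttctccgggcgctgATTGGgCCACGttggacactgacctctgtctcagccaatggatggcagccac
Sdf2l1 (chr16:17132384-17132633, − strand): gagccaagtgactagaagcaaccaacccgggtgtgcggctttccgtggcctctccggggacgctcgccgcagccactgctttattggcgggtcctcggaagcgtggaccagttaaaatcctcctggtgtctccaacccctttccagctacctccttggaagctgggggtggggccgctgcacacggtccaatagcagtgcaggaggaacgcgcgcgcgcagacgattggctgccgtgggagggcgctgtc
Creld2 (chr15:88819396-88819645, + strand): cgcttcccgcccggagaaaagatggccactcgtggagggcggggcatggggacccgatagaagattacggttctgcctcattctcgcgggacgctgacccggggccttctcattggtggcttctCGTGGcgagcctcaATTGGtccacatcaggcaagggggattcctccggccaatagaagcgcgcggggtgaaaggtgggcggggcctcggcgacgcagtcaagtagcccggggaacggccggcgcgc

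Averaged over 6, 9 and 12 h after 4-HT, 6 of the 10 members rose from their own 0 h level in Δ(177-191) (Hspa5, Hsp90b1, Dnajb9, Dnajc3, Herpud1 and Sdf2l1) and 0 fell, where 14.4% of the 12800 genes tested rose and 21.2% fell. Of 25 other tested folding genes of the endoplasmic reticulum 5 rose and 6 fell in the same comparison. Their median was −0.03 on the log2 scale, as for all genes. Of the probe sets called in that comparison 43.8% were higher, and 60.2% were with each array centred on its median, under which 7 members rose and 0 fell. With quantile normalization 6 members rose and Pdia6 fell (−0.23, adjusted p = 0.000876). The same 6 rose relative to the change of vector cells, against 11.2% of genes higher and 14.4% lower, and 0 were lower. The median relative change of the members was 0.37 on the log2 scale, against −0.03 for all genes. In the other fusion lines fewer members, and also fewer of all genes, moved relative to vector. In WT 3 members were higher (Pdia4, Dnajb9 and Sdf2l1) and 1 lower (Herpud1), against 5.06% and 4.46% of genes. In K298E 1 was higher (Dnajb9) and 0 lower, against 3.83% and 2.21%. These relative changes share the vector arrays. The direct comparison of mean changes, WT minus Δ(177-191), was lower for 6 members (Hspa5, Hsp90b1, Pdia6, Dnajb9, Herpud1 and Sdf2l1), where 11.1% of genes were lower, and higher for 1 (Pdia4), where 14.3% were. With each array centred on its median, 3 members were lower and 1 higher in it. Pdia6, Dnajb9 and Sdf2l1 missed the threshold (adjusted p = 0.126, 0.0529 and 0.0908). Calls here are adjusted p-values under 0.05 from limma, with Benjamini-Hochberg adjustment over all probe sets tested, and changes are differences of log2(signal + 3), with their standard error (SE), which understate the fold of dim genes.

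**Figure D1:**
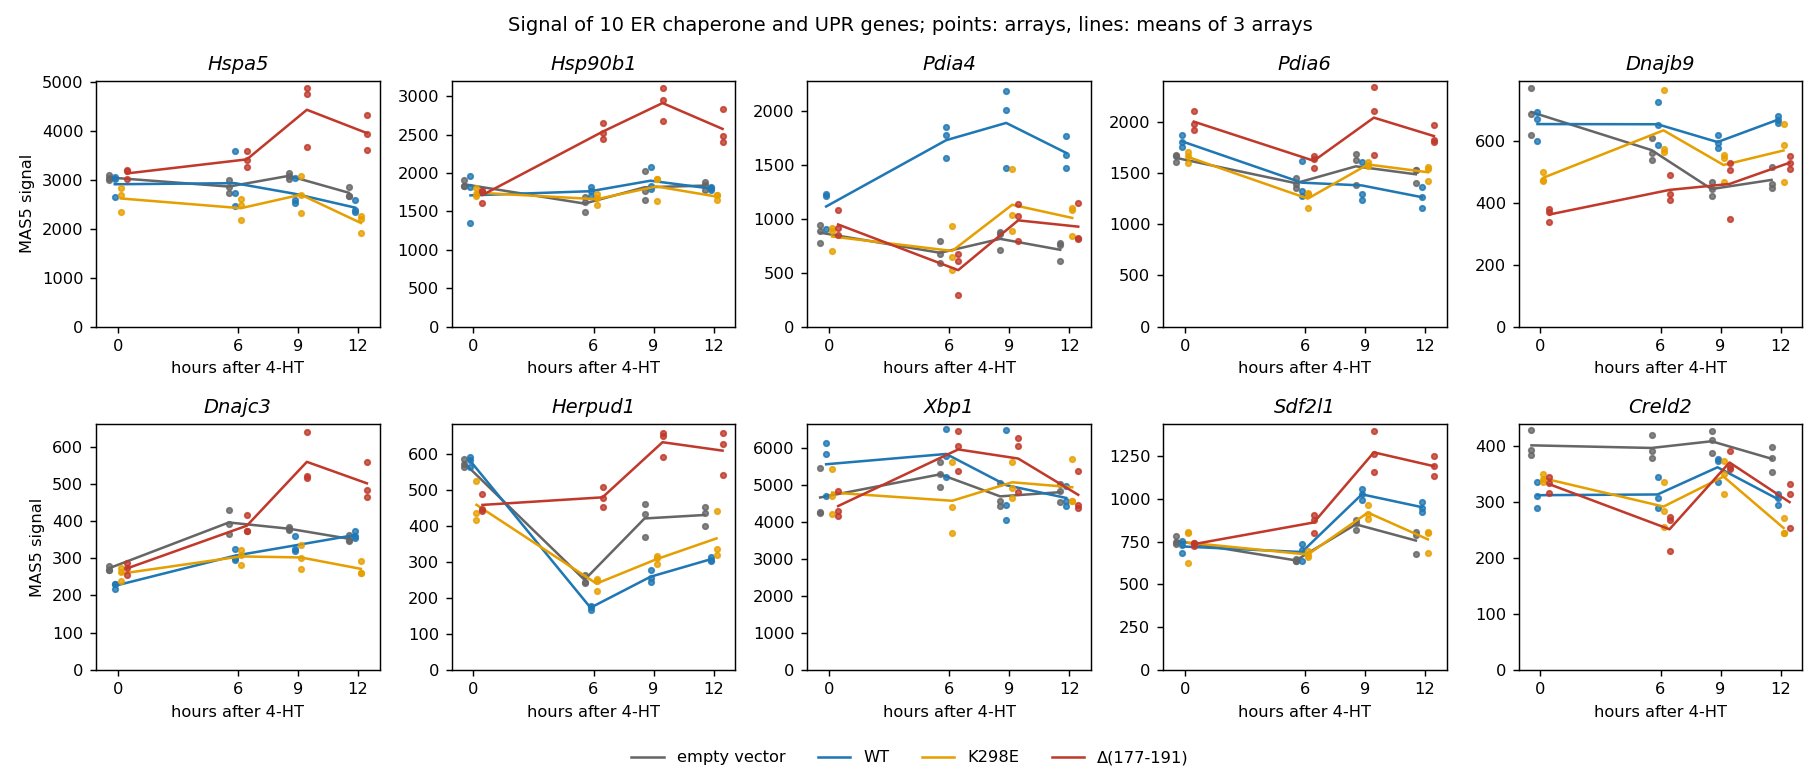
Signal (linear scale, arbitrary units) of the brightest probe set of each of the 10 members against hours after 4-HT; points are single arrays, lines join the means of 3 arrays, and colours are the 4 lines. The Δ(177-191) line is highest for Hsp90b1, Herpud1 and Sdf2l1 at 6, 9 and 12 h, and Herpud1 falls at 6 h in the other 3 lines.

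Herpud1 encodes a membrane protein of the degradation complex for misfolded endoplasmic reticulum proteins and is a target of both ATF6 and ATF4. It had the widest range of the members, its highest group mean being 3.67 times the lowest. In vector cells its signal on 3 arrays was 564, 570 and 586 at 0 h, 242, 244 and 263 at 6 h, 368, 433 and 459 at 9 h, and 436, 400 and 453 at 12 h. In WT cells the arrays read 583, 591 and 563 at 0 h, 174, 165 and 178 at 6 h, 243, 278 and 254 at 9 h, and 314, 302 and 304 at 12 h. Every treated array of both lines lay below every array at 0 h, with the lowest values at 6 h and a partial return afterwards. K298E arrays read 436, 523 and 415 at 0 h, 220, 251 and 247 at 6 h, 317, 311 and 293 at 9 h, and 334, 319 and 441 at 12 h. In Δ(177-191) they read 445, 440 and 488 at 0 h, 506, 452 and 478 at 6 h, 648, 657 and 590 at 9 h, and 657, 542 and 626 at 12 h. The Δ(177-191) line thus had no dip at 6 h: 7 of its 9 treated arrays lay above all 3 at 0 h and none below.

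At 6 h Herpud1 fell by 1.73 ± 0.09 in WT (log2 ± SE; adjusted p = 1.24e-18), by 1.19 ± 0.09 in vector (adjusted p = 2.91e-13) and by 0.92 ± 0.09 in K298E (adjusted p = 7.57e-10), a signal 3.32-fold, 2.28-fold and 1.90-fold lower. In Δ(177-191) the change at 6 h was 0.06 ± 0.09 (adjusted p = 0.695). From 6 to 12 h it rose again by 0.78 in vector, 0.82 in WT and 0.59 in K298E (adjusted p = 7.2e-08, 1.13e-08 and 1.65e-05). Relative to vector, the mean change over the 3 times was 1.0 ± 0.11 in Δ(177-191), a 2.0-fold difference (adjusted p = 6.56e-10), −0.58 ± 0.11 in WT (adjusted p = 0.00013) and 0.08 ± 0.11 in K298E (adjusted p = 0.835). WT and Δ(177-191) differed by −1.58 ± 0.11 (adjusted p = 3.53e-15), and WT and K298E by −0.66 ± 0.11 (adjusted p = 1.2e-05). Its second probe set gave 1.16 for Δ(177-191) relative to vector (adjusted p = 4.24e-06), −0.71 for WT (adjusted p = 0.00997) and −1.86 for the difference between the 2 lines (adjusted p = 1.42e-10). The rise of Δ(177-191) over its own 0 h, 0.31 ± 0.08 (adjusted p = 0.00112), had an adjusted p of 0.0582 without replicate 1 of every group.

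Hsp90b1 encodes GRP94, the HSP90 family chaperone of the endoplasmic reticulum. Its Δ(177-191) arrays read 1762, 1773 and 1610 at 0 h, 2657, 2440 and 2521 at 6 h, 3112, 2947 and 2679 at 9 h, and 2484, 2408 and 2836 at 12 h. In vector cells they read 1829, 1826 and 1906 at 0 h, 1691, 1627 and 1491 at 6 h, 1762, 1656 and 2027 at 9 h, and 1884, 1785 and 1841 at 12 h. All 9 treated Δ(177-191) arrays were above its arrays at 0 h and above every vector array, whereas treated and untreated arrays overlapped in the other lines. Hsp90b1 was up from 6 h on in Δ(177-191), by 0.57, 0.76 and 0.58 at 6, 9 and 12 h (SE 0.09 each; adjusted p = 4.15e-06, 8.14e-09 and 2.3e-06). The mean change relative to vector was 0.72 ± 0.11 (adjusted p = 7.95e-07), and that of WT minus that of Δ(177-191) was −0.53 ± 0.11 (adjusted p = 0.000168). In WT and K298E the mean changes from 0 h were 0.11 ± 0.08 and −0.02 ± 0.08 (adjusted p = 0.334 and 0.952). The second probe set gave 0.73 relative to vector (adjusted p = 0.00498) and −0.54 against WT (adjusted p = 0.0502).

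Hspa5 encodes BiP, the HSP70 of the endoplasmic reticulum, which holds unfolded chains and keeps the sensors inactive. Its Δ(177-191) arrays read 3011, 3185 and 3188 at 0 h, 3407, 3255 and 3583 at 6 h, 4867, 4752 and 3666 at 9 h, and 3930, 3613 and 4312 at 12 h. Vector arrays read 3038, 2999 and 3101 at 0 h, 2994, 2858 and 2728 at 6 h, 3021, 3135 and 3080 at 9 h, and 2856, 2673 and 2669 at 12 h. The 9 treated Δ(177-191) arrays were above all 3 of its arrays at 0 h, with replicate 3 at 9 h about as high as the 6 h arrays, and also above every vector array. The mean change was 0.32 ± 0.09 from 0 h (adjusted p = 0.00589; 0.0644 without replicate 1 of every group) and 0.39 ± 0.13 relative to vector (adjusted p = 0.023), a 1.31-fold difference. This relative call did not outlast the loss of single arrays: without vector 0 h replicate 3 it was 0.38 (adjusted p = 0.0581), and without Δ(177-191) 0 h replicate 1 it was 0.37 (adjusted p = 0.0682). WT minus Δ(177-191) was −0.44 ± 0.13 (adjusted p = 0.0109), with an adjusted p of 0.16 without replicate 2 and 0.124 without replicate 3 of every group. Of its 2 other probe sets, 1 rose relative to vector (0.48, adjusted p = 0.0059) and 1 did not pass (0.24, adjusted p = 0.484). In WT the probe sets disagreed: the brightest changed by −0.12 ± 0.09 from 0 h (adjusted p = 0.368), and the second fell by 0.32 ± 0.09 (adjusted p = 0.0055).

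Sdf2l1 encodes a soluble partner of BiP and of the endoplasmic reticulum J proteins. In Δ(177-191) its arrays read 744, 741 and 724 at 0 h, 909, 880 and 801 at 6 h, 1400, 1265 and 1157 at 9 h, and 1252, 1133 and 1194 at 12 h. WT arrays read 731, 753 and 684 at 0 h, 735, 699 and 636 at 6 h, 997, 1030 and 1057 at 9 h, and 984, 950 and 925 at 12 h. Vector arrays read 735, 746 and 786 at 0 h, 640, 635 and 648 at 6 h, 822, 876 and 859 at 9 h, and 806, 676 and 790 at 12 h. All 4 lines, K298E with 912, 883 and 968 included, were at their highest at 9 h, and the Δ(177-191) arrays at 9 and 12 h were above every array of the other lines. Relative to vector, Sdf2l1 rose by 0.59 ± 0.09 in Δ(177-191) (1.5-fold, adjusted p = 3.83e-06), a call kept in every alternative computed. In WT the relative mean change was 0.30 ± 0.09 (adjusted p = 0.0398), and leaving out any of 12 of the 24 arrays compared put its adjusted p between 0.0507 and 0.145; those arrays were vector 0 h replicates 1, 2 and 3, vector 6 h replicate 2, vector 9 h replicate 1, vector 12 h replicate 2, WT 0 h replicates 1 and 3, WT 6 h replicates 1 and 2, WT 9 h replicate 3 and WT 12 h replicate 1. WT rose from its own 0 h by 0.28 (adjusted p = 0.000851). The difference between WT and Δ(177-191), −0.29 ± 0.09 (adjusted p = 0.0231), had an adjusted p of 0.0566, 0.0819 and 0.0609 without WT 0 h replicate 1, WT 0 h replicate 2 and Δ(177-191) 0 h replicate 3.

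Dnajb9 and Dnajc3 encode J proteins that direct BiP to its clients; the first, ERdj4, also represses IRE1α, and the second is also known as an inhibitor of the kinase PKR. Dnajb9 separated the lines before 4-HT: arrays at 0 h read 622, 689 and 774 in vector, 600, 672 and 697 in WT, 474, 472 and 502 in K298E, and 339, 381 and 370 in Δ(177-191). The K298E and Δ(177-191) arrays did not overlap with each other or with the vector and WT arrays, which overlapped. At 12 h they read 516, 448 and 462 in vector, 661, 681 and 668 in WT, 588, 657 and 467 in K298E, and 530, 553 and 510 in Δ(177-191). Vector had come down, Δ(177-191) had come up from the lowest level of the 4 lines, and the WT arrays overlapped with those at 0 h. The 0 h difference from vector was −0.93 ± 0.12 in Δ(177-191) (1.90-fold lower, adjusted p = 2.35e-08) and −0.52 ± 0.12 in K298E (adjusted p = 0.00405; −0.44 and 0.0538 without vector 0 h replicate 3). Vector cells fell by 0.48 ± 0.10 on average over the 3 times (adjusted p = 0.000161), with all 9 treated arrays below those at 0 h. Δ(177-191) rose by 0.38 ± 0.10 (adjusted p = 0.00154), with 8 of 9 treated arrays above those at 0 h. WT and K298E gave −0.03 and 0.24 (adjusted p = 0.842 and 0.173). Relative to vector the mean change was therefore 0.87 ± 0.14 in Δ(177-191), 0.72 ± 0.14 in K298E and 0.45 ± 0.14 in WT (adjusted p = 2.67e-06, 0.000408 and 0.0311; 0.0529 for K298E without replicate 2 of every group), of which the fall in vector cells makes up a share in each. The WT value missed the threshold without vector 0 h replicate 2 or 3 (adjusted p = 0.0669 and 0.164) or WT 0 h replicate 1 or 2 (0.138 and 0.0548). WT minus Δ(177-191) was −0.42 ± 0.14 (adjusted p = 0.0227), and 0.0606, 0.079 and 0.0834 were its adjusted p-values without WT 0 h replicate 2, WT 0 h replicate 3 and Δ(177-191) 0 h replicate 1.

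Dnajc3 arrays read 269, 269 and 280 at 0 h in vector and 365, 393 and 430 at 6 h, 378, 384 and 376 at 9 h, and 346, 349 and 362 at 12 h. In WT they read 217, 230 and 230, then 300, 295 and 325, then 318, 326 and 359, then 354, 373 and 360 at the same times. In Δ(177-191) they read 287, 256 and 274, then 374, 416 and 372, then 639, 522 and 516, then 464, 558 and 482. All 9 treated arrays of these 3 lines were above their own 0 h arrays, while 6 of 9 were in K298E, whose treated arrays ran from 260 to 335. Dnajc3 rose by 0.46 ± 0.07 in vector, 0.56 ± 0.07 in WT and 0.80 ± 0.07 in Δ(177-191) (adjusted p = 1.38e-06, 7.06e-09 and 4.72e-13), against 0.18 ± 0.07 in K298E (adjusted p = 0.154). Relative to vector only Δ(177-191) passed in the mean of the 3 times, with 0.34 ± 0.10 (adjusted p = 0.0069; 0.191 without replicate 2 of every group), and WT exceeded K298E by 0.38 ± 0.10 (adjusted p = 0.00403; 0.0828 and 0.123 without replicate 2 or 3 of every group). The gene's 4 other, dimmer probe sets gave 0.04, 0.39, 0.10 and −0.01 for Δ(177-191) relative to vector, and 0 of the 4 passed, so this call rests on 1 probe set. In the same order, 3, 0, 9 and 8 of 9 treated vector arrays lay above all vector arrays at 0 h. These counts were 6, 3, 9 and 3 in WT and 1, 8, 8 and 8 in Δ(177-191). The rises from 0 h were thus not shared by every probe set.

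**Figure D2:**
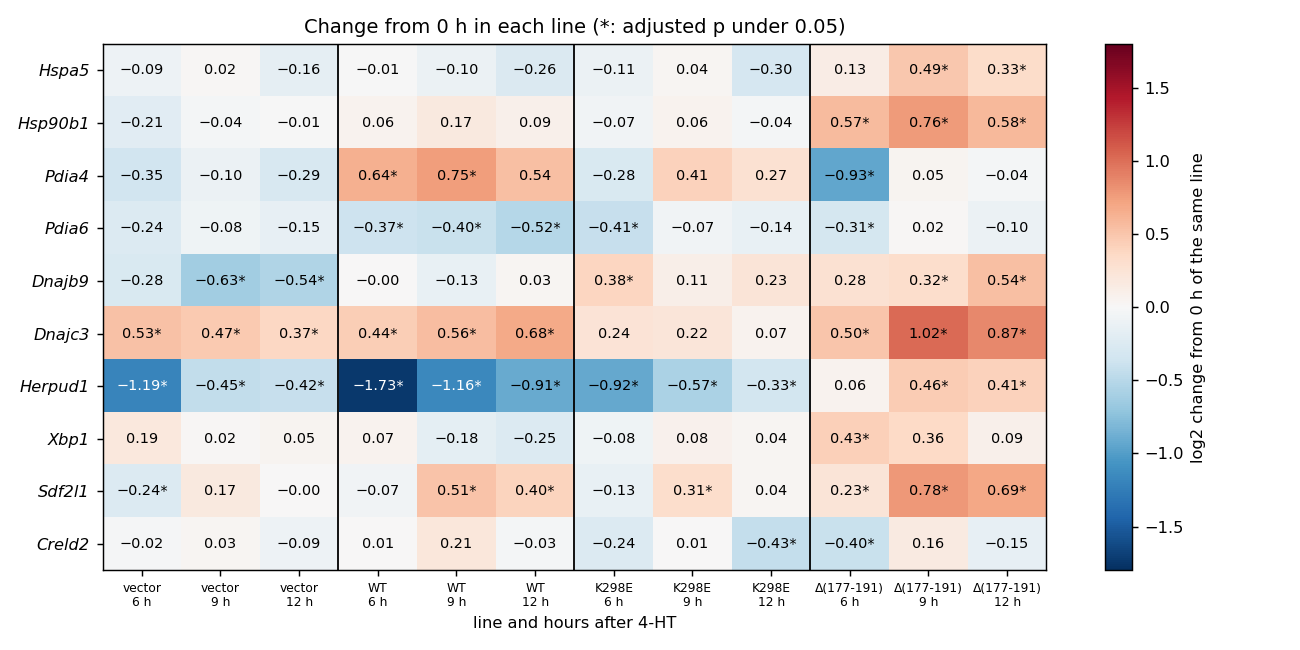
Heat map of the log2 change from each line's own 0 h at 6, 9 and 12 h for the 10 members (rows) in the 4 lines (columns), each the difference of means of 3 arrays; an asterisk marks an adjusted p under 0.05. Δ(177-191) at 9 and 12 h holds 6 rises each (13.7% and 12.2% of genes rose at these times), and Herpud1 is lower at 6 and 9 h in vector, WT and K298E. The Δ(177-191) rise of Dnajb9 at 9 h missed the threshold without any of 4 of the 6 arrays compared (adjusted p of 0.0635 to 0.238). That of Hspa5 at 12 h did so without either of 2 of 6 (0.0779 and 0.127).

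Among the disulphide isomerases, Pdia4 rose in WT and Pdia6 fell. Pdia4 (ERp72) arrays in WT read 1227, 1208 and 908 at 0 h, 1777, 1847 and 1564 at 6 h, 1471, 2183 and 2012 at 9 h, and 1766, 1471 and 1595 at 12 h. Vector arrays read 946, 891 and 776, then 797, 587 and 669, then 877, 709 and 855, then 755, 609 and 773. All 9 treated WT arrays were above those at 0 h, and in Δ(177-191) the 6 h arrays (670, 609 and 292) were below the others of that line. Pdia4 rose in WT by 0.64 ± 0.17 (adjusted p = 0.00298) and relative to vector by 0.89 ± 0.24 (1.86-fold, adjusted p = 0.0143). Without WT 0 h replicate 3, the lowest of its group, these were 0.50 (adjusted p = 0.06) and 0.75 (adjusted p = 0.0863), and without vector 0 h replicate 1 the relative value was 0.83 (adjusted p = 0.0569). The comparison with Δ(177-191), in which the relative change was −0.06 ± 0.24, gave WT higher by 0.95 ± 0.24 (adjusted p = 0.00312) and passed in every alternative. WT and K298E differed by 0.51 ± 0.24 (adjusted p = 0.186).

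Pdia6 (P5), an isomerase that works beside BiP, fell in WT. Its WT arrays read 1757, 1810 and 1872 at 0 h, 1618, 1327 and 1279 at 6 h, 1613, 1236 and 1294 at 9 h, and 1366, 1267 and 1164 at 12 h. Each of the 9 treated arrays was below all arrays at 0 h, and the mean fall was 0.43 ± 0.08 (1.35-fold lower, adjusted p = 1.77e-05). In vector, K298E and Δ(177-191), 7, 8 and 6 of 9 treated arrays were below all of their own at 0 h, and 1, 0 and 2 above. Pdia6 was also called lower at 6 h in K298E and Δ(177-191). The first call was lost without replicate 2 of every group (adjusted p = 0.15), the second under median centring (adjusted p = 0.16). Relative to vector, whose change was −0.15 ± 0.08, the WT value was −0.28 ± 0.11 and did not pass (adjusted p = 0.146). In Δ(177-191) Pdia6 read 2108, 1924 and 1982 at 0 h, above every vector array at 0 h (1606, 1676 and 1672). That difference, 0.28 ± 0.10 (adjusted p = 0.0275), passed the threshold by a margin that any of 5 of the 6 arrays decided, all but Δ(177-191) replicate 2 (adjusted p of 0.0525 to 0.117 without them). The difference in mean change between WT and Δ(177-191), −0.30 ± 0.11 (adjusted p = 0.048), missed the threshold without any of 16 of the 24 arrays compared (0.0557 to 0.131); the 8 that did not matter were replicate 1 of WT at 6, 9 and 12 h, and of Δ(177-191) replicate 1 at 0 h, 2 at 6 h, 3 at 9 h, and 1 and 2 at 12 h.

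Xbp1, the transcription factor made active by IRE1α splicing, had no call in the mean changes of any line. Its Δ(177-191) arrays read 4831, 4281 and 4155 at 0 h, 6038, 5372 and 6441 at 6 h, 6268, 6032 and 4813 at 9 h, and 4360, 4459 and 5356 at 12 h. The 6 h arrays were above those at 0 h, and the 9 and 12 h arrays overlapped with them. At 6 h the change was 0.43 ± 0.15 (adjusted p = 0.0264), and 0.11 (adjusted p = 0.442) under quantile normalization; without Δ(177-191) 0 h replicate 2 or 3 or 6 h replicate 1 or 3 the adjusted p was 0.0698 to 0.114. The change in this line was 0.29 ± 0.12 on average (adjusted p = 0.06) and 0.21 ± 0.17 relative to vector (adjusted p = 0.489), and across its 4 probe sets the relative values were 0.21, 0.32, 0.47 and 0.37 with 0 of 4 past the threshold. The arrays of WT overlapped between 0 h (4703, 6115 and 5832) and 12 h (4957, 4415 and 4547).

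Creld2, an endoplasmic reticulum protein with isomerase activity that is induced by ATF6, had no call in the mean changes of any line, and its promoter holds an ERSE. Its Δ(177-191) arrays read 334, 317 and 346 at 0 h, 274, 268 and 213 at 6 h, 360, 391 and 363 at 9 h, and 254, 314 and 333 at 12 h. The 6 h arrays were below and the 9 h arrays above all arrays at 0 h. Creld2 fell by 0.40 ± 0.10 at 6 h (adjusted p = 0.000948; 0.0718 without replicate 3 of every group) and its mean change was −0.13 ± 0.08 (adjusted p = 0.222). In K298E it read 337, 350 and 342 at 0 h and 245, 245 and 272 at 12 h, with no overlap, a fall of 0.43 ± 0.10 (adjusted p = 0.00615; 0.056 and 0.431 without replicate 1 or 2 of every group).

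**Figure D3:**
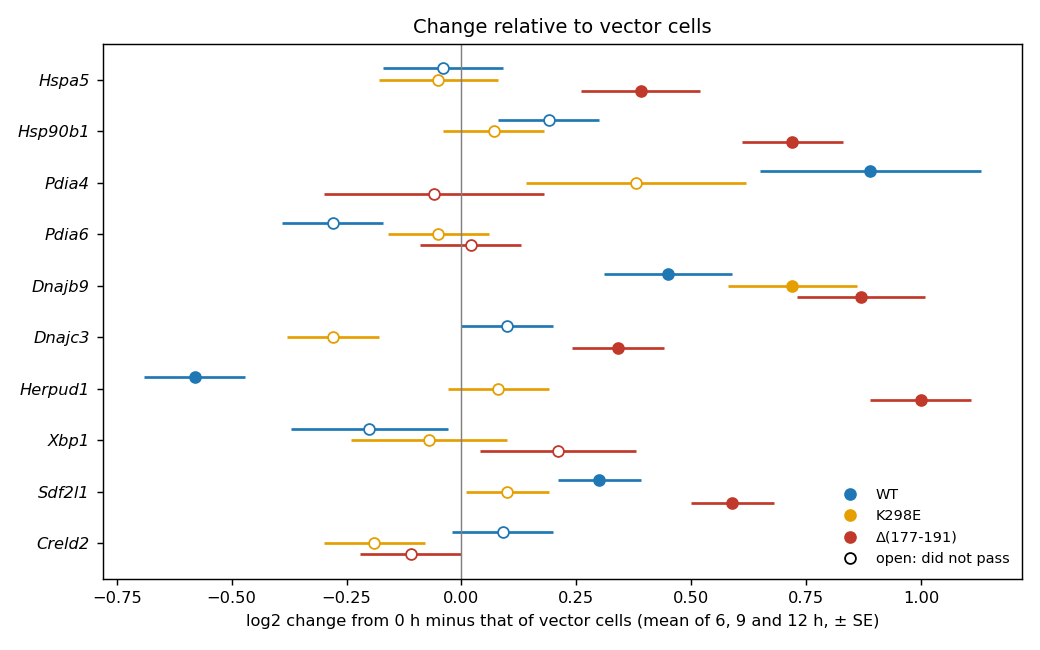
Mean log2 change over 6, 9 and 12 h minus that of vector cells for the 10 members in the 3 fusion lines; bars are ± SE from the fit of all 48 arrays, filled points had an adjusted p under 0.05 and open points did not. Herpud1 spans −0.58 in WT to 1.0 in Δ(177-191), and Pdia4 goes the other way, with 0.89 in WT, 0.38 in K298E and −0.06 in Δ(177-191).

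Seen within single lines, vector cells themselves moved few members: Dnajc3 rose, and Dnajb9 and Herpud1 fell, 1 of 10 and 2 of 10 against 10.4% and 13.4% of genes. In WT, Pdia4, Dnajc3 and Sdf2l1 rose and Pdia6 and Herpud1 fell from 0 h, where 16.6% and 19.6% of genes did. Centring each array on its median moved the higher share of called probe sets from 44.7% to 67.1% in vector and from 45.9% to 64.7% in WT, and left the members at 1 higher and 2 lower in vector and 4 and 2 in WT. In K298E 0 rose and Herpud1 fell, where 2.81% and 3.53% of genes did. The median member change in these lines was −0.08, 0.01 and 0.00, near those of all genes (−0.03, −0.07 and −0.01), while in Δ(177-191) it was 0.31 against −0.03. Before 4-HT, Creld2 was lower in WT than in vector and 0 members higher (2.80% and 2.91% of genes), Dnajb9 and Herpud1 were lower in K298E and 0 higher (3.45% and 3.01%), and in Δ(177-191) Dnajb9, Herpud1 and Creld2 were lower and Pdia6 higher (3 and 1 of 10, against 15.3% and 13.2%). Several of these 0 h calls depended on single arrays. That of Herpud1 in K298E (−0.33, adjusted p = 0.0264) missed the threshold without any array but K298E replicate 2 (0.0618 to 0.199). Creld2 in WT (−0.36, adjusted p = 0.0173) missed it without vector replicate 3 (0.12) or WT replicate 2 (0.133), and in Δ(177-191) (−0.27, adjusted p = 0.0324) without vector replicate 2 or 3 or Δ(177-191) replicate 1 or 2 (0.0549 to 0.154). Herpud1 in Δ(177-191), −0.32 (adjusted p = 0.00691), kept its call without any single array but missed the threshold without replicate 1 or 2 of every group (0.065 and 0.0764). WT and K298E differed in mean change for 2 members, Dnajc3 higher and Herpud1 lower in WT, against 8.42% and 9.09% of genes.

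The members did not share 1 profile. Across the 16 group means, the median Pearson correlation of the 45 member pairs was 0.13, with 11 pairs over 0.5 and 16 under 0. Hspa5 and Hsp90b1 correlated at 0.82, Hsp90b1 and Sdf2l1 at 0.81, and Pdia6 and Herpud1 at 0.80, while Dnajb9 and Pdia6 stood at −0.57. The mean of the 10 centred profiles was highest in Δ(177-191) at 9 h (0.38) and 12 h (0.26) and lowest in K298E at 6 h (−0.25). Sdf2l1 (0.852), Hspa5 (0.814) and Hsp90b1 (0.811) were closest to it among the members, and Dnajb9 (−0.123) farthest. Each member is 1 of the 10 profiles in that mean, which raises its own value, so the member values cannot be set against those of other genes. Of 12790 other genes, the 5 closest were Zbtb38 (0.912), Casp6 (0.902), Tmem192 (0.893), Chid1 (0.891) and Zwint (0.89). All of these points come from the same 48 arrays and share their scaling, and the values are descriptions over 16 groups.

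The other genes of the pathway, taken from 5 lists, were read at 12 h relative to vector, when 3.81% of genes were higher and 3.37% lower in WT, 3.37% and 2.23% in K298E, and 9.94% and 12.4% in Δ(177-191). Of the members, 6 were higher in Δ(177-191) at that time, 2 (Dnajb9 and Sdf2l1) higher and 1 (Herpud1) lower in WT, and 1 (Dnajb9) higher in K298E. The WT call of Dnajb9 (0.57, adjusted p = 0.0285) missed the threshold without vector 0 h replicate 2 or 3, vector 12 h replicate 2 or 3, WT 0 h replicate 1, or WT 12 h replicate 2 or 3 (0.0522 to 0.114). That of Sdf2l1 (0.40, adjusted p = 0.0281) did so without vector 0 h replicate 3, vector 12 h replicate 2, WT 0 h replicate 3, or WT 12 h replicate 1 or 2 (0.0527 to 0.138). In Δ(177-191) that of Hspa5 (0.49, adjusted p = 0.0237) did so without vector 12 h replicate 3, Δ(177-191) 0 h replicate 1 or Δ(177-191) 12 h replicate 3 (0.0511 to 0.0805).

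Few other folding factors passed the test at 12 h. Of 25 tested of a list of 27, 1 passed in each fusion line, Ero1a, the oxidase that recharges disulphide isomerases. Calr, Pdia3, Hyou1, Dnajb11 and Manf gave 0.06, 0.11, 0.00, −0.13 and 0.29 in Δ(177-191) and did not pass. The median of the list was 0.05 there, against −0.04 for all genes. At 9 h the list had 2 higher and 0 lower in Δ(177-191) relative to vector, against 9.66% and 12.7% of genes. Its median was then 0.15, against −0.02 for all genes. From the line's own 0 h, 8 of the 25 rose and 3 fell at 9 h, against 13.7% and 18.7% of genes. Ero1a arrays at 0 and 12 h read 1981, 2321 and 2325 and then 1283, 1144 and 1255 in vector, 2261, 2521 and 2495 and then 2510, 2267 and 2405 in WT, and 2813, 2608 and 2728 and then 2780, 2284 and 2966 in Δ(177-191). K298E arrays read 1452, 1410 and 1514 at 0 h and 1814, 1964 and 1643 at 12 h. Ero1a came down in vector cells, overlapped between the times in WT and Δ(177-191), and was higher at 12 h without overlap in K298E. There the mean change from 0 h was 0.16 ± 0.09 (adjusted p = 0.37). The relative values of 0.83, 1.15 and 0.81 in WT, K298E and Δ(177-191) (adjusted p = 0.000117, 5.63e-07 and 4.45e-05) contain the fall in vector.

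Genes of endoplasmic reticulum associated degradation rose in Δ(177-191). Of 19 tested of 20, 8 were higher (Edem1, Edem2, Syvn1, Derl1, Selenos, Herpud2, Ufd1 and Fam8a1) and 0 lower there, with a list median of 0.31 against −0.04 for all genes. In WT 5 were higher (Edem1, Edem2, Edem3, Selenos and Herpud2) and Derl2 lower, and in K298E Os9 was higher and Derl2 lower. Derl2 itself rose in vector, from a mean of 271.7 at 0 h to 343.0 at 12 h. Its means were 330.3 and 325.3 in WT, and 340.0 and 320.0 in K298E. Os9 means went from 391.3 to 319.0 in vector and from 326.0 to 358.7 in K298E. The relative values of both genes thus contain the change in vector. Edem1, a lectin that hands misfolded glycoproteins to degradation, read 785, 750 and 760 at 0 h and 1976, 2025 and 1741 at 12 h in Δ(177-191). In WT it read 456, 548 and 427 and then 842, 933 and 958, and in vector 476, 470 and 420 and then 462, 497 and 460. Δ(177-191) and WT arrays at 12 h were above all of their own at 0 h, and vector arrays overlapped; Edem1 was also higher in Δ(177-191) than in vector before 4-HT, by 0.75 (adjusted p = 5.08e-08). At 0 h 2 of the 19 genes were higher and 8 lower in Δ(177-191) than in vector, against 13.2% and 15.3% of genes, with a list median of −0.18 against −0.01 for all genes. Selenos gave −0.45 and Fam8a1 −0.25 (adjusted p = 4.61e-06 and 0.00966). The relative change of Edem1 at 12 h was 1.26 ± 0.14 in Δ(177-191) and 0.88 ± 0.14 in WT (adjusted p = 1.91e-09 and 1.29e-05), against 0.20 ± 0.14 in K298E (adjusted p = 0.58). Fam8a1, a partner of the HRD1 ligase Syvn1, read 401, 432 and 445 and then 845, 707 and 674 in Δ(177-191) against 501, 512 and 509 and then 384, 424 and 362 in vector, opposite directions without overlap. Its relative change was 1.17 ± 0.11 (adjusted p = 1.18e-11) in Δ(177-191) and 0.11 ± 0.11 in WT (adjusted p = 0.733). Selenos, which links Derl1 to the ATPase VCP, gave 1.06 in Δ(177-191) and 0.79 in WT (adjusted p = 8.33e-11 and 3.35e-07). The WT value of Derl2, −0.35 (adjusted p = 0.0182), missed the threshold without vector 0 h replicate 3, vector 12 h replicate 1 or WT 0 h replicate 1 (0.0514, 0.0526 and 0.0842), and that of Os9 in K298E, 0.43 (adjusted p = 0.00959), without K298E 0 h replicate 2 (0.0591).

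**Figure D4:**
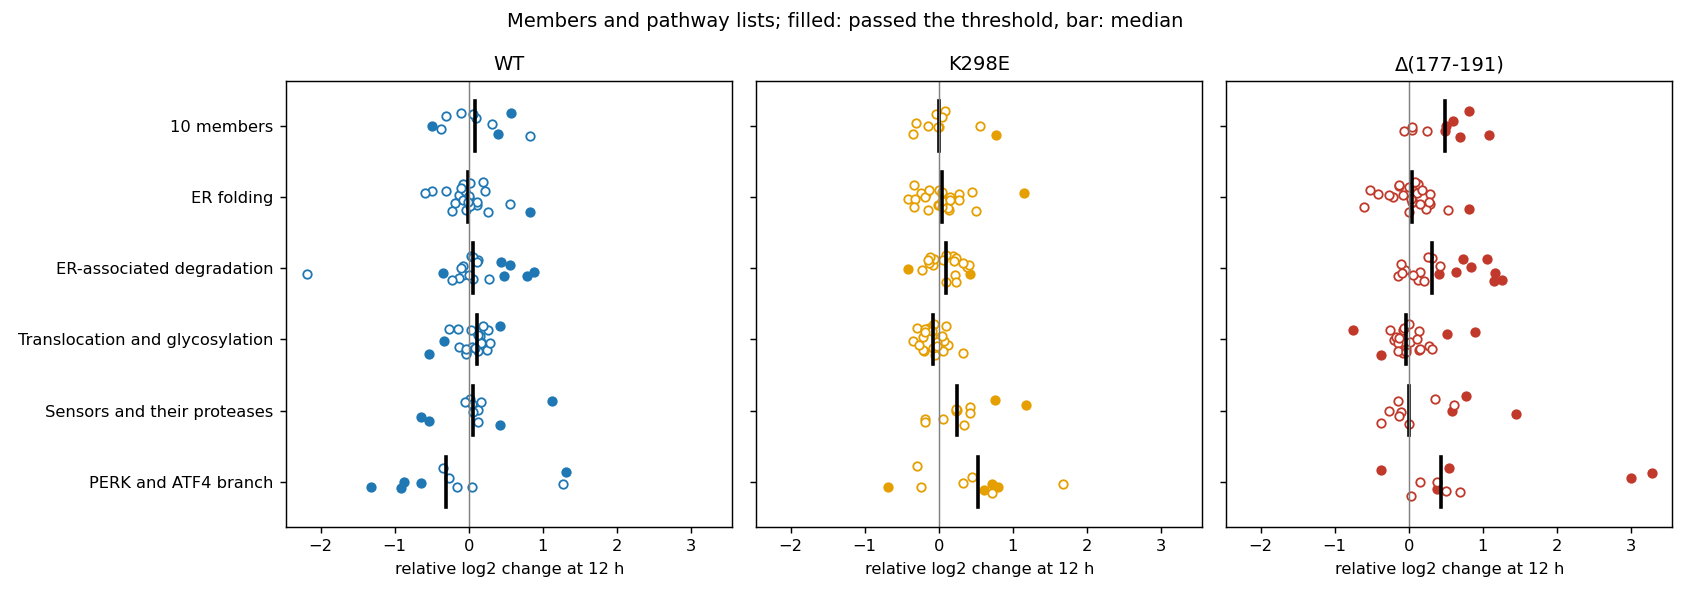
Log2 change at 12 h minus that of vector cells for the 10 members and the 5 pathway lists in the 3 fusion lines; each point is 1 gene, filled where the adjusted p was under 0.05, and the bar is the median (vertical spread of points is for display only). In Δ(177-191), 6 of 10 members and 8 of 19 degradation genes are filled on the higher side, against 1 of 25 folding genes.

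Few genes of translocation and glycosylation passed. Of 23 tested of 24, 2 were higher and 2 lower in Δ(177-191), 1 higher and 2 lower in WT, and 0 moved in K298E. Sec11c, a signal peptidase subunit, read 694, 646 and 703 at 0 h and 1159, 1026 and 1074 at 12 h in Δ(177-191), without overlap, and rose by 0.89 ± 0.15 relative to vector (adjusted p = 7.71e-06). Rpn1, a subunit of the oligosaccharyltransferase, read 2919, 2614 and 2694 and then 1428, 1776 and 1781, and fell by 0.75 ± 0.14 (adjusted p = 7.67e-05). Sec63 (0.52, adjusted p = 0.0178) missed the threshold without vector 12 h replicate 2, Δ(177-191) 0 h replicate 2 or Δ(177-191) 12 h replicate 3 (0.0535, 0.0726 and 0.054), and Spcs3 gave −0.38 (adjusted p = 0.00363). In WT, Rpn1 gave −0.54 (adjusted p = 0.0121), Dad1 0.42 (adjusted p = 0.0409) and Sec62 −0.33 (adjusted p = 0.0289). Dad1 missed the threshold without any of the 12 arrays but vector 12 h replicate 2 and WT 0 h replicates 1 and 2 (0.0511 to 0.155), and Sec62 without vector 0 h replicate 3, vector 12 h replicate 1 or 2, WT 0 h replicate 2, or WT 12 h replicate 1 or 3 (0.0613 to 0.125).

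Among 11 sensors and associated regulators, 3 were higher and 0 lower in Δ(177-191), 2 and 2 in WT, and 2 and 0 in K298E. Atf6 in Δ(177-191) read 86, 110 and 120 at 0 h and 191, 206 and 159 at 12 h, while in vector it went from 125, 133 and 146 to 83, 91 and 81. The arrays of the 2 times did not overlap in either line, and the directions were opposite, which gave a relative change of 1.45 ± 0.18 (adjusted p = 2.85e-08), against 0.17 and 0.43 in WT and K298E (adjusted p = 0.768 and 0.214). Ern1 (IRE1α) fell in vector, from 353, 344 and 344 to 180, 186 and 155, and read 189, 194 and 186 and then 173, 143 and 118 in Δ(177-191). Its relative changes of 1.12 in WT, 1.18 in K298E and 0.59 in Δ(177-191) (adjusted p = 7.17e-07, 6.56e-07 and 0.00389) thus contain the fall in vector, and in Δ(177-191) all 12 h arrays were below those at 0 h. Eif2ak3 (PERK) gave 0.02, 0.25 and −0.14 in WT, K298E and Δ(177-191), and did not pass (adjusted p = 0.981, 0.477 and 0.647). Tmbim6, which restrains IRE1α, rose by 0.78 in Δ(177-191) (adjusted p = 4.6e-06), and its WT value of 0.43 (adjusted p = 0.0255) missed the threshold without vector 0 h replicate 1 or 3, vector 12 h replicate 2, WT 0 h replicate 2 or 3, or WT 12 h replicate 1 or 3 (0.059 to 0.0926). Bbc3, a pro-apoptotic protein, gave 0.76 in K298E (adjusted p = 0.000828), where it read 149, 154 and 182 at 0 h and 143, 142 and 157 at 12 h. Vector arrays went from 230, 217 and 244 to 111, 141 and 119, so this value contains the fall in vector. In WT Bbc3 gave −0.54 (adjusted p = 0.0185). Without vector 0 h replicate 2, vector 12 h replicate 2 or WT 0 h replicate 1 its adjusted p was 0.0615, 0.0966 and 0.0672. Creb3 gave −0.64 in WT (adjusted p = 0.0122, and 0.0562 without WT 0 h replicate 2).

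Genes of the PERK and ATF4 branch fell in vector cells after 4-HT. In vector cells 7 of 10 tested genes (of 12 listed) fell by 12 h and 0 rose, with 6 falls in WT and 5 in K298E and 0 rises in either, whereas Δ(177-191) had 4 rises and 4 falls. Of all genes, 7.69% rose and 9.73% fell by 12 h in vector, 14.7% and 16.1% in WT, 1.02% and 1.30% in K298E, and 12.2% and 18.2% in Δ(177-191). Relative to vector at 12 h, WT had 1 higher and 4 lower, K298E 3 and 1, and Δ(177-191) 4 and 1. These counts changed with the hour. At 6 h they were 1 and 1 in WT, 1 and 0 in K298E, and 7 and 0 in Δ(177-191). Among all genes the shares at 6 h were 3.27% and 2.97%, 1.17% and 0.117%, and 8.15% and 10.1%. In the mean of the 3 times Δ(177-191) had 7 higher and 0 lower, against 11.2% and 14.4% of genes. At 0 h 7 of the 10 were lower and 1 higher in Δ(177-191) than in vector, against 15.3% and 13.2% of genes. In K298E 5 were lower and 0 higher, against 3.45% and 3.01% of genes. The list medians were −0.80 and −0.48, against −0.01 and 0.00 for all genes. Atf4 read 2838, 3023 and 2753 at 0 h and 1426, 1344 and 1315 at 12 h in WT, against 2286, 2252 and 2292 and then 2093, 1939 and 2062 in vector. WT began above vector and ended below it, without overlap, a relative change of −0.91 ± 0.10 (adjusted p = 1.44e-08). In Δ(177-191) Atf4 went from 1299, 1368 and 1499 to 959, 939 and 941 at 12 h (relative change −0.38, adjusted p = 0.0059). Without replicate 2 or 3 of every group the adjusted p was 0.0834 and 0.19. At 6 h Atf4 read 1230, 1206 and 1131 in Δ(177-191) and 1054, 1084 and 1019 in vector, so the larger fall was in vector at that hour. Trib3, an ATF4 target, went from 738, 736 and 676 to 88, 101 and 96 in WT and from 528, 621 and 621 to 209, 188 and 198 in vector, a relative change of −1.32 ± 0.21 (adjusted p = 1.37e-05). In K298E its relative change was 0.80 (adjusted p = 0.0169; 0.0516 without K298E 0 h replicate 3). Ddit3 (CHOP), the pro-apoptotic factor downstream of ATF4, gave −0.34, 0.45 and 0.50 in WT, K298E and Δ(177-191) and did not pass (adjusted p = 0.587, 0.377 and 0.152). At 0 h it read 99, 80 and 113 in Δ(177-191) against 341, 374 and 372 in vector, a difference of −1.88 (adjusted p = 1.48e-12). Nupr1, a stress-induced chromatin protein, read 94, 85 and 97 and then 352, 407 and 360 in Δ(177-191), and 170, 173 and 175 and then 73, 58 and 74 in vector. Its relative change was 3.29 ± 0.16 in Δ(177-191) and 1.31 ± 0.16 in WT (adjusted p = 2.56e-19 and 1.07e-07), where WT itself read 209, 206 and 200 and then 204, 216 and 198. Atf3 rose in Δ(177-191) from 66, 66 and 67 to 177, 182 and 175, with vector arrays of 22, 4 and 3 at 12 h near the filter, so the relative value of 3.0 ± 0.59 (adjusted p = 0.000139) depends on dim signals. Asns, the asparagine synthetase gene that ATF4 drives, fell from 1552, 1608 and 1637 to 717, 702 and 757 in K298E, a relative change of −0.68 (adjusted p = 3.67e-07), and gave −0.87 in WT and 0.38 in Δ(177-191) (adjusted p = 3.49e-10 and 0.000967).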

How the data were processed

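Biotin-labelled cRNA from total RNA of 48 samples was hybridised to Affymetrix MOE430_2 arrays, per the labels' protocols. The authors deposited 1 signal intensity per probe set and array on a linear scale, and MAS5 is named in the submitters' processing notes; its version and settings are not given in the sources used here. Trimmed means of 100 on every array show a global scaling. Of 45101 probe sets, 64 controls were left out; 34945 carried 1 gene symbol in the platform annotation, 932 several and 9160 none. Values were taken as log2(signal + 3), the constant being the 20th percentile of all signals. Probe sets were tested where at least 1 of 16 group means exceeded the median of all values (a signal of 14), 27167 probe sets and 12800 genes. A model of 16 group means (32 residual degrees of freedom, no replicate block) was fitted to all 48 arrays with limma 3.58.1 (R 4.3.3), trended eBayes and Benjamini-Hochberg adjustment, two-sided. Same-numbered arrays were not treated as paired, although 25 of 48 were closest to their own number, above the 16 of an even spread. The fit was tested on simulated data.

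Changes from 0 h, changes relative to vector, differences between fusions and 0 h differences were computed. The members and lists were chosen with earlier results of these data known. Named were all probe sets of the members, Ern1, Atf6, Eif2ak3, Atf4, Ddit3 and Esr1, up to 2 highest and 2 lowest calls per list and fusion at 12 h, and the 5 genes nearest the members' mean profile; list genes named only as counted calls or as uncalled examples (Calr, Pdia3, Hyou1, Dnajb11 and Manf) were chosen after their values were seen. Alternatives were pseudocounts of 12 and 32, no filter, quantile normalization, median centring, array weights, the compared arrays alone, a replicate block, each array or replicate left out, and other probe sets. Fkbp14 and Vldlr were below the filter, and Mesd, Sec61g and Eif2s1 were not analysed here. No protein sequences were used.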

Additional observations from a re-analysis of the deposited data

Results flagged for a closer look

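For 9 results the change after 4-HT differed between 2 fusion lines by a direct test of the difference in mean change over 6, 9 and 12 h (limma, log2 scale, 9 treated and 3 untreated arrays per line). Between WT and Δ(177-191) the difference was −1.58 for Herpud1, −0.53 for Hsp90b1, −0.44 for Hspa5, −0.42 for Dnajb9, −0.30 for Pdia6 and −0.29 for Sdf2l1, each lower in WT, and 0.95 for Pdia4, higher in WT. Between WT and K298E it was −0.66 for Herpud1 and 0.38 for Dnajc3. Adjusted p-values ran from 3.53e-15 for Herpud1 to 0.048 for Pdia6 in the first comparison and were 1.2e-05 and 0.00403 in the second. Groups of 3 arrays were not screened for single outlying arrays.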

How the results depend on the processing

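Of 3232 values recomputed under processing alternatives for 404 named results, 3123 kept their direction and side of the threshold, 41 dropped below it, 68 passed it and 0 called values reversed; with arrays left out, 5170 of 5520 were kept, 315 dropped below it, 35 passed it and 0 reversed. Other probe sets, or the mean of a gene's probe sets, reversed 18 of 666. These were Pdia6 in K298E at 6 h (0.17 for the mean, 0.75 for the other probe set) and in WT minus Δ(177-191) (0.05); and Dnajc3 in vector at 9 h (−0.08), 12 h (−0.24 and −0.10) and the mean (−0.08), in WT at 6 h (−0.01 and −0.21), in Δ(177-191) at 9 h (−0.07) and from 6 to 12 h (−0.06 for the mean, −0.16, −0.10 and −0.61), and in Δ(177-191) relative to vector at 9 h (−0.01 and −0.07), 12 h (−0.44) and the mean (−0.01). The cause was not tested.

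Quantile normalization moved members called from 3 to 5 in vector, from 1 to 2 in K298E and, at 0 h in WT, from 1 to 2. Array weights moved probe sets called from 1104 to 1853 (WT at 0 h), 1310 to 2307 (K298E at 0 h) and 1241 to 2001 (K298E relative to vector), and members from 1 to 2 (WT at 0 h, and K298E relative to vector) and from 2 to 4 (WT minus K298E). Median centring left 1 of 2 members called in K298E at 0 h and 4 of 7 in WT minus Δ(177-191) (Hspa5, Hsp90b1, Pdia4 and Herpud1). It shifted the median of all probe sets by 0.131 in WT and 0.104 in Δ(177-191), and moved the higher share of called probe sets from 45.9% to 64.7% in WT, 43.8% to 60.2% in Δ(177-191), 44.7% to 67.1% in vector, 45.1% to 59.8% in K298E, 62.0% to 43.3% in K298E relative to vector, 46.0% to 65.1% in K298E at 0 h, and 48.2% to 66.0% in WT minus K298E; in Δ(177-191) relative to vector members stayed at 6 higher and 0 lower.

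With arrays left out, the probe sets and members called ranged over 2964 to 4940 and 3 to 3 (vector), 5937 to 8116 and 4 to 7 (WT), 442 to 1355 and 1 to 2 (K298E), 5915 to 8128 and 5 to 7 (Δ(177-191)); relative to vector, 979 to 2019 and 1 to 4 (WT), 343 to 1220 and 0 to 1 (K298E), 3486 to 5592 and 4 to 6 (Δ(177-191)); at 0 h, 349 to 984 and 0 to 1 (WT), 356 to 961 and 0 to 2 (K298E), 4341 to 5459 and 1 to 3 (Δ(177-191)); and 1765 to 3790 and 1 to 3 (WT minus K298E), 3314 to 5524 and 3 to 9 (WT minus Δ(177-191)). Same-numbered arrays were not treated as paired (residual correlations of −0.15 to 0.147, 8 of 360 over 0.1). Of 48 arrays 25 were closest to their own number, above the 16 of an even spread, a hint from the data that numbers carry some shared variation. With the replicate block, called probe sets went from 5441 to 5508 in Δ(177-191) relative to vector, from 1973 to 2032 in WT and from 1241 to 1297 in K298E, and member counts were unchanged in the 12 comparisons. Signals give no count or depth, so 3 arrays per group limit the precision.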
